A study of Mus musculus with 30 samples.

Results

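The subject here is the colony-stimulating factor 1 receptor axis and the transcription factors that specify macrophages, followed across 6 groups of mouse microglia by bulk RNA sequencing. The 9 genes are Csf1r, its ligand Csf1, the receptor chains Csf2ra, Csf2rb and Csf3r, and the lineage factors Spi1, Runx1, Cebpa and Cebpb. They were taken by name and not by their values, though with earlier results of these data known. They are 9 of the 38031 genes in the summed count table. All 9 passed the filter on low counts.

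Microglia are the resident macrophages of the brain, and their survival depends on signalling through CSF1R, a receptor tyrosine kinase that binds CSF1 and interleukin-34. The receptors for GM-CSF (Csf2ra with the common beta chain Csf2rb) and for G-CSF (Csf3r) belong to the cytokine receptor family and are shared with monocytes and granulocytes. PU.1, encoded by Spi1, is the Ets-family factor without which macrophages do not form. RUNX1 and the C/EBP factors act with it, and Csf1r is one of their known shared targets.

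Primary microglia of C57BL/6 background were taken on postnatal day 21. They carried either the Lrrk2-/- genotype (KO, germline loss of the leucine-rich repeat kinase 2) or the wild-type one, and were given LPS, the bacterial Toll-like receptor 4 agonist, or α-synuclein fibrils, or were kept as controls. The groups were KO LPS with 4 libraries, KO fibril with 5, KO control with 6, wild-type LPS with 6, wild-type fibril with 4 and wild-type control with 5, 30 libraries in all. The labels state no dose, duration of treatment or sex, and they do not say whether replicates were separate cultures or animals, so every p-value describes only the scatter among these libraries, part of which may be technical.

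Gene totals ranged from 8936310 to 35677005 counts per library, with a median of 20432234. Levels are given as CPM, counts scaled to the library size with TMM factors. Lrrk2 stood at 0.731 to 4.68 CPM in KO libraries, against 6.87 to 16.7 CPM in wild-type libraries. Tnf stood at 1777 to 2199 CPM in KO LPS libraries against 76.4 to 172 CPM in KO controls, and at 1776 to 2757 CPM in wild-type LPS libraries against 78.0 to 141 CPM in wild-type controls. The summed level of 18 microglial markers was 10601 to 15522 CPM in every group, and Siglech was at 0 in 4 of the 6 groups. Of the 17 that passed the filter on low counts, 4 were lower with fibrils than in control in each genotype (edgeR adjusted p under 0.05). With fibrils 2 were higher in wild type and 1 in KO. The 9 markers of border and peripheral macrophages summed to 1536 to 2275 CPM over all libraries. Of 12 neutrophil and progenitor markers 2 passed the filter, and their 12 genes summed to 0.286 to 7.13 CPM, with Ly6g and Retnlg at 0 in every group. Markers of astrocytes, the oligodendrocyte lineage and fibroblasts were detected at levels that differed between libraries. The mean log2 CPM of 35 markers of these cells was 0.15 to 2.69 in KO LPS, 0.853 to 2.63 in KO fibril, 0.839 to 3.53 in KO control, -1.11 to 2.95 in wild-type LPS, -1.0 to -0.67 in wild-type fibril and -0.67 to 2.75 in wild-type control libraries. The wild-type fibril group had the lowest median of this score, and its values are given again beside each result it moved with. A further 7 libraries were named as standing apart by earlier results of these data (KO control 1, 4 and 6, KO fibril 5, wild-type control 6, wild-type LPS 1 and 6), and values without them are given where a call depends on them.

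Levels between genes were compared per length, as TPM, counts over transcript length scaled to the same total in each library. Over all libraries Csf1r averaged 502 TPM and Spi1 324 TPM, the highest of the 9. Cebpb averaged 108, Runx1 89.8, Csf2ra 66.1, Cebpa 39.2, Csf2rb 32.4 and Csf3r 20.8 TPM. Csf1 was lowest at 3.65 TPM, with 26 to 397 counts per library, so its values rest on the fewest reads. The other Csf1r ligand, Il34, had between 0 and 8 counts per library and did not pass the filter. Within the microglia preparations the receptor was thus abundant and transcripts of both of its ligands were scarce. In bulk samples fewer cells of a type and less RNA per cell cannot be told apart.

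**Figure D1:**
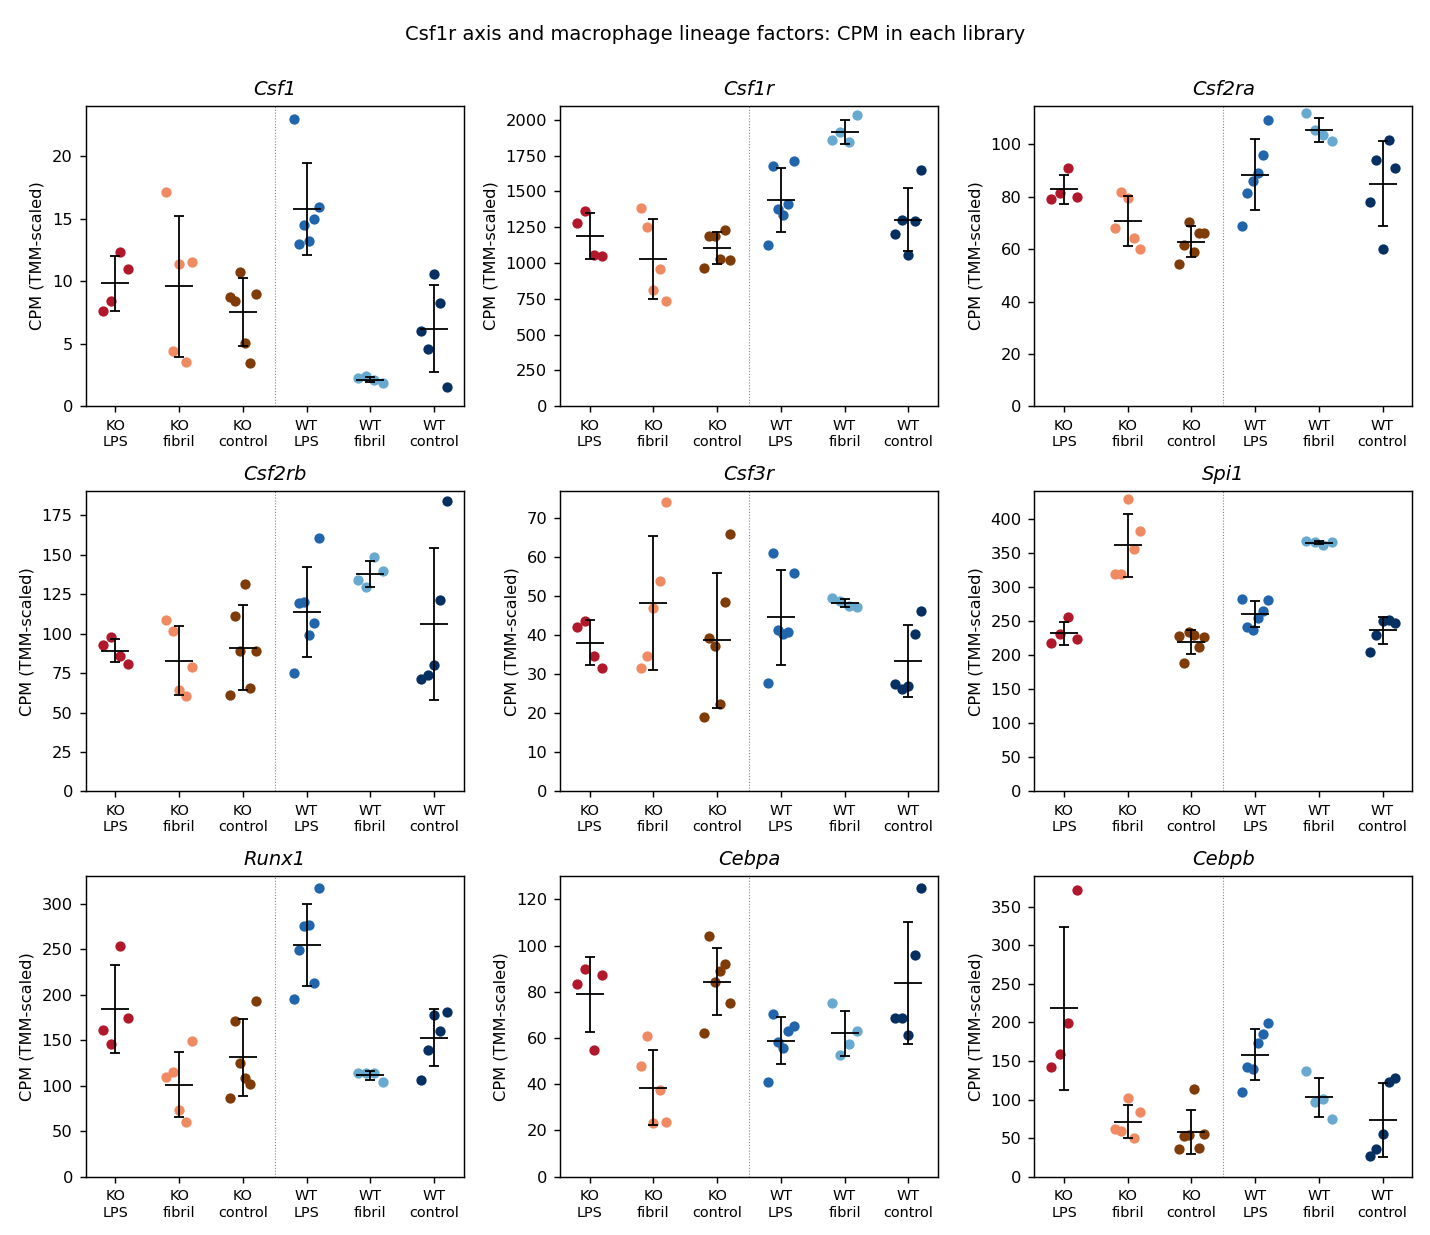
CPM (counts scaled to library size with TMM factors) of each of the 9 genes in each library, by group along the horizontal axis, KO groups left of the dotted line and wild-type groups right of it; points are libraries, the bar is the mean and the whiskers 1 SD. The mean of Csf1 is highest in wild-type LPS and lowest in wild-type fibril libraries, Spi1 is raised in both fibril groups, and Csf1r in wild-type fibril libraries (1848 to 2033 CPM) lies above all 26 other libraries.

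In GENCODE M21 on GRCm38 (mm10), Csf1r lies at chr18:61100598-61132149 on the plus strand and its ligand Csf1 at chr3:107741048-107760469 on the minus strand. Csf2ra lies at chr19:61223957-61228429 (minus), Csf2rb at chr15:78325752-78353847 (plus), beside Csf2rb2 at chr15:78282507-78305721 (minus), and Csf3r at chr4:126024550-126044440 (plus). Spi1 lies at chr2:91082390-91115756 (plus), Runx1 at chr16:92601466-92826149 (minus), Cebpa at chr7:35119293-35121928 (plus) and Cebpb at chr2:167688915-167690418 (plus). The value of a gene is the sum of the deposited counts of its transcripts.

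Most counts of each gene with several annotated transcripts fell on 1 or 2 of them. Csf1r-201 held 93.8% of Csf1r counts, Csf1-201 held 89.9% of Csf1 counts and Spi1-201 held 79.3% of Spi1 counts. Runx1 has a distal and a proximal promoter. The transcript starting at the distal one, Runx1-201, held 7.39% of Runx1 counts, and Runx1-202 and Runx1-203, which start at and near the proximal one, held 35.8% and 56.8%. The distal share averaged 6.39 ± 0.94% in KO LPS, 6.37 ± 2.22% in KO fibril, 8.15 ± 2.48% in KO control, 5.99 ± 0.90% in wild-type LPS, 8.09 ± 1.67% in wild-type fibril and 10.9 ± 4.45% in wild-type control libraries (mean ± SD, n = 4, 5, 6, 6, 4 and 5). The labels do not say how reads were divided among transcripts, and these shares are descriptions.

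LPS was compared with control in each genotype. In wild-type microglia 3 of the 9 genes rose and none fell, against 15.1% of 14346 tested genes called (7.1% higher and 8.03% lower), and the 3 were the ligand Csf1 and the factors Runx1 and Cebpb. In KO microglia 2 rose, Cebpb and Csf2ra, and none fell, against 13.7% of genes called (6.36% higher and 7.35% lower). Their median log2 fold change was 0.10 in KO and 0.15 in wild type, beside medians over all genes of -0.04 and -0.02. Calls here and below are at a Benjamini-Hochberg adjusted p under 0.05 over all tested genes in edgeR's quasi-likelihood test, and errors of fold changes are standard errors.

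Csf1 had 12.98, 14.7 and 23.0 CPM as the lowest, median and highest of 6 wild-type LPS libraries, against 6.03, 4.56, 10.6, 8.25 and 1.52 CPM in the wild-type controls. All 6 LPS libraries lay above all 5 controls. The log2 fold change was 1.34 ± 0.37 (edgeR adjusted p = 0.0117). Without the 7 libraries that stand apart it was 0.92 (adjusted p = 0.109). In KO microglia Csf1 had 7.58, 8.41, 12.3 and 10.98 CPM with LPS, against 3.47, 8.58 and 10.7 CPM as the lowest, median and highest of 6 controls. These groups overlapped, and the fold change of 0.37 ± 0.38 was not called (edgeR adjusted p = 0.608). The difference between the genotypes' responses, -0.97 ± 0.53, was not called either (edgeR adjusted p = 0.992).

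Runx1, the core-binding factor of definitive haematopoiesis, had 196, 263 and 317 CPM as the lowest, median and highest wild-type LPS values, against 106, 139, 178, 161 and 182 CPM in wild-type controls. The groups did not overlap. The fold change was 0.74 ± 0.21 on the log2 scale (edgeR adjusted p = 0.0169). It was 0.63 (adjusted p = 0.0680) without wild-type control 1, and 0.52 (adjusted p = 0.0668) when libraries were scaled by size alone. That scaling placed the median of all genes at -0.23, against -0.02 with TMM factors. In KO microglia Runx1 stood at 161, 146, 254 and 175 CPM with LPS, against 87.1 to 193 CPM in controls (median 117), with overlap, and its fold change of 0.49 ± 0.22 missed the threshold (edgeR adjusted p = 0.165). With a block for replicate number it was called (0.63, edgeR adjusted p = 0.0424).

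Cebpb encodes the C/EBP factor of inflammatory macrophage gene expression. In KO microglia it had 142, 159.6, 199 and 372 CPM with LPS, against 36.4, 53.4 and 113 CPM as the lowest, median and highest of 6 controls. Every LPS library lay above every control. The log2 fold change was 1.91 ± 0.36 (edgeR adjusted p = 0.00038), and it stayed called without any single library, with values of 1.52 to 2.21. In wild-type microglia Cebpb had 110.4, 158 and 199 CPM as lowest, median and highest with LPS, against 27.0, 35.9, 55.9, 123 and 127 CPM in controls. The controls fell into 3 low and 2 high libraries, and the high ones overlapped with LPS. The wild-type fold change was 1.10 ± 0.35 (edgeR adjusted p = 0.0311). Leaving out wild-type control 1, 2 or 3 or wild-type LPS 4, 5 or 6 ended this call, with adjusted p of 0.103, 0.103, 0.0774, 0.0530, 0.0570 and 0.0679, and so did the fit of the compared groups alone (adjusted p = 0.0671). The deposited counts do not say whether strand was used in counting, and 312 of the 1504 exonic bases of Cebpb overlap exons of Tmem189 on the opposite strand, so part of the Cebpb counts is uncertain.

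Csf2ra, the ligand-binding chain of the GM-CSF receptor, had 79.0, 81.5, 91.0 and 79.8 CPM in KO LPS libraries, against 54.2, 63.7 and 70.5 CPM as lowest, median and highest in KO controls. The groups did not overlap, and the log2 fold change was 0.40 ± 0.12 (edgeR adjusted p = 0.0254). The call ended without KO control 1 (0.36, adjusted p = 0.0577), KO LPS 2 (0.41, adjusted p = 0.0521) or KO LPS 3 (0.33, adjusted p = 0.0977), without the 7 libraries (0.33, adjusted p = 0.0939), without a filter on low counts (adjusted p = 0.0650), under scaling by library size (0.22, adjusted p = 0.183) and with the other-cell marker score as a covariate (0.33, adjusted p = 0.0680). In wild-type microglia its fold change was 0.06 ± 0.11 (edgeR adjusted p = 0.857). Cebpa, the C/EBP factor of granulocyte and monocyte commitment, had 40.8, 60.7 and 70.2 CPM as lowest, median and highest in wild-type LPS libraries against 61.5 to 125 CPM in wild-type controls. Its fold change of -0.51 ± 0.22 missed the threshold (edgeR adjusted p = 0.127), and under scaling by library size it was -0.71 (adjusted p = 0.0119).

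The receptor Csf1r and PU.1 were not called with LPS. The fold change of Csf1r was 0.10 ± 0.15 in KO (95% interval -0.20 to 0.41) and 0.15 ± 0.14 in wild type (-0.14 to 0.44), and that of Spi1 was 0.08 ± 0.08 in KO (-0.09 to 0.25) and 0.14 ± 0.08 in wild type (-0.02 to 0.30). Under scaling by library size all 4 turned negative. Csf2rb was at -0.03 ± 0.24 in KO and 0.10 ± 0.23 in wild type, and Csf3r at -0.03 ± 0.27 and 0.41 ± 0.26. Without the 7 libraries Csf3r was called in wild type, at 0.60 (adjusted p = 0.0194).

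Upstream sequence is shown for the LPS-called genes Csf1, Runx1, Cebpb and Csf2ra, 250 bases ending just before the annotated start, 5′ to 3′ on the strand of the gene, from RefSeq for GRCm38.p6. A set of 4 motifs was searched on both strands: GAGGAAG for PU.1, TTGCNNAA for C/EBP, TGTGGTT for RUNX and GGNNTTTCC for NF-kB, the factor of the LPS response. Capitals mark a match.
Csf1 upstream, chr3:107760470-107760719, minus strand: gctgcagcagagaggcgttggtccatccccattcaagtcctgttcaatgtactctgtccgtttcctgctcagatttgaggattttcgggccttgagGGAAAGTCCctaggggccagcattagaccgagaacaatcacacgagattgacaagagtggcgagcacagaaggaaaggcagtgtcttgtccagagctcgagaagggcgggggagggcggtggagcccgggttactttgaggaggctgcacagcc
Runx1 proximal upstream, chr16:92697330-92697579, minus strand: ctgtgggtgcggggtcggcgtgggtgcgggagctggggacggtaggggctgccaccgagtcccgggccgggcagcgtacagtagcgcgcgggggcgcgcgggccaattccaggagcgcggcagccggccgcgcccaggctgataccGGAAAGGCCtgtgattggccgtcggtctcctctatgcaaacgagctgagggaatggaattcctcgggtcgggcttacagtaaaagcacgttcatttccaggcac
Cebpb upstream, chr2:167688665-167688914, plus strand: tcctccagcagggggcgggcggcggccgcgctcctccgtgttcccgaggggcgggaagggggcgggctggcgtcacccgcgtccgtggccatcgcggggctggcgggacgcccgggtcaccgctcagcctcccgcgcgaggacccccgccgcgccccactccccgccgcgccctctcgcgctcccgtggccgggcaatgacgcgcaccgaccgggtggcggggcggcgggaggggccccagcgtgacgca
Csf2ra upstream, chr19:61228419-61228668, minus strand: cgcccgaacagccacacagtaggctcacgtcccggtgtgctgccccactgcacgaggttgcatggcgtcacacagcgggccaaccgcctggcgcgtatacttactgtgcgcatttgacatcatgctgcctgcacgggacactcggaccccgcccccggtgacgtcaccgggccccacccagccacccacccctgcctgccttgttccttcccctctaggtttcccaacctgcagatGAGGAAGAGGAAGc
Csf1 had 1 NF-kB match, from base -154 to -146 counted back from the start, and the proximal Runx1 promoter had 1, from -104 to -96. Over 32851 mouse promoters 4.93% held that motif in this window. Csf2ra had 2 PU.1 matches that overlap by 1 base, between -14 and -2, where 10.6% of promoters held the motif at least once. Cebpb had none of the 4 in its window, and neither did Cebpa or the distal Runx1 promoter. Csf3r and the near copy Csf2rb2 each had 1 PU.1 match. The Csf3r window spans the start of Csf3r-202, which held 28.0% of Csf3r counts. Csf3r-201, which held 69.9%, starts further downstream, at chr4:126027292. The C/EBP motif, held by 9.56% of promoters, and the RUNX motif, held by 4.4%, were in none of these windows. A match describes letters and not binding.

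**Figure D2:**
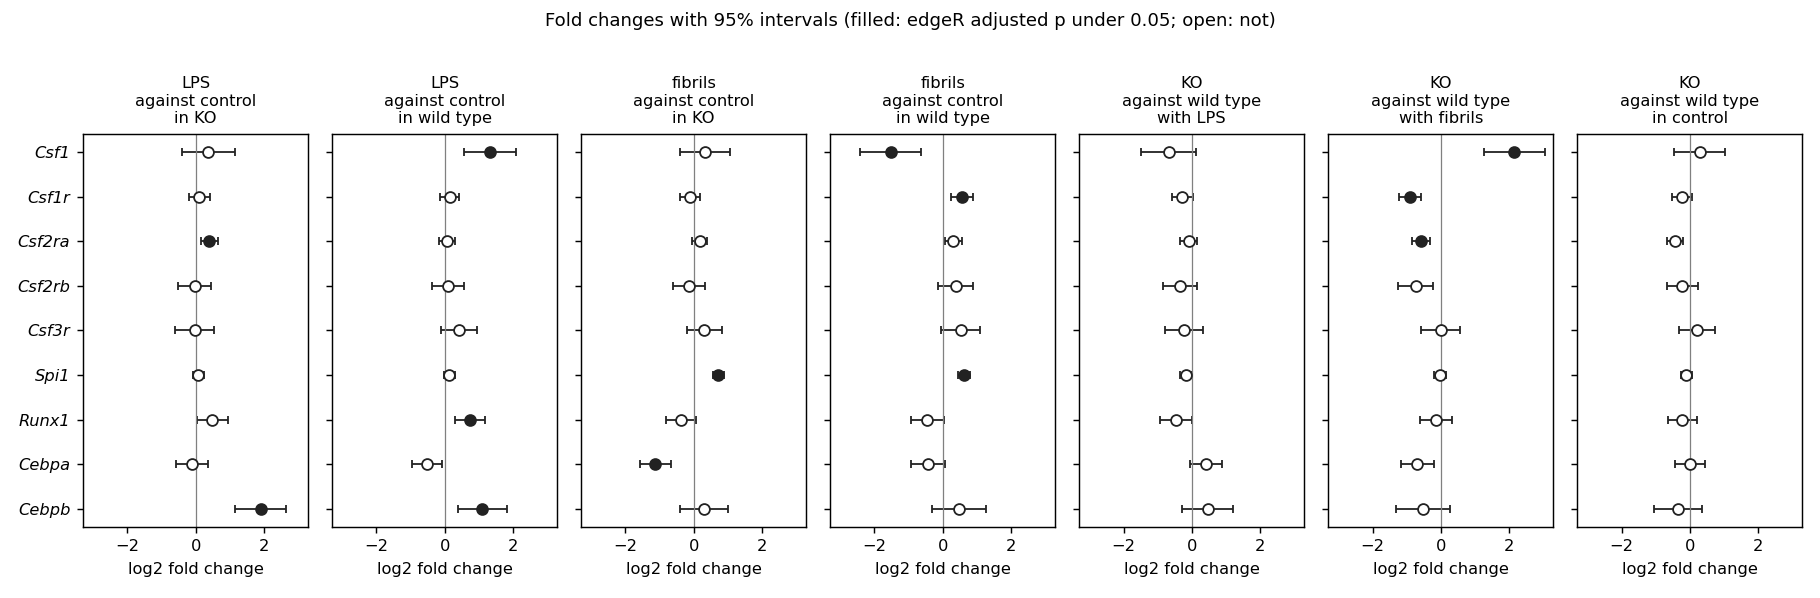
Log2 fold change (horizontal axis) of each of the 9 genes (rows) in each of 7 comparisons, with 95% intervals; filled points have an edgeR adjusted p under 0.05. Spi1 is filled in both fibril comparisons, Cebpb in both LPS comparisons, and Csf1 is filled on the right for LPS and on the left for fibrils in wild type.

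Fibrils were compared with control in each genotype, and here PU.1 was the gene called in both. In wild-type microglia Spi1 and Csf1r rose and Csf1 fell, 3 of 9 genes against 29.4% of all tested genes called (13.8% higher and 15.6% lower). In KO microglia Spi1 rose and Cebpa fell, 2 of 9 against 23.7% of genes called (12.2% higher and 11.5% lower). The median log2 fold change of the 9 was 0.17 in KO and 0.38 in wild type, beside -0.04 and -0.05 over all genes. Both counts were near the share called among all genes.

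Spi1 stood at 319.6, 319, 429.8, 357 and 383 CPM in KO fibril libraries, against 188, 227 and 235 CPM as lowest, median and highest in KO controls. It stood at 368, 367, 363 and 367 CPM in wild-type fibril libraries, against 204, 229.7, 250.2, 253 and 247 CPM in wild-type controls. Every fibril library lay above every control of its genotype. The log2 fold changes were 0.72 ± 0.08 in KO (edgeR adjusted p = 2.31e-07) and 0.63 ± 0.09 in wild type (adjusted p = 9.22e-06). Both stayed called in every alternative that was run. The difference between the genotypes, 0.09 ± 0.12, was not called (edgeR adjusted p = 0.807), with a 95% interval of -0.15 to 0.33. Against LPS, fibrils also gave higher Spi1, by 0.64 ± 0.09 in KO (edgeR adjusted p = 5.19e-06) and 0.49 ± 0.08 in wild type (adjusted p = 5.53e-05).

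Csf1r rose in wild-type fibril libraries to 1862, 1915, 1848 and 2033 CPM, against 1205, 1303, 1057, 1291 and 1652 CPM in wild-type controls. The groups did not overlap. The log2 fold change was 0.56 ± 0.16 (edgeR adjusted p = 0.00887). In KO fibril libraries Csf1r stood at 1387, 1254, 812, 955 and 738 CPM, against 962 to 1232 CPM in KO controls (median 1108). There the fold change was -0.10 ± 0.14 (edgeR adjusted p = 0.680), and the fibril libraries spread both above and below the controls. The difference between the responses was -0.66 ± 0.21, in KO minus wild type (edgeR adjusted p = 0.319). It was -0.79 (adjusted p = 0.0447) without the 7 libraries. With fibrils against LPS, Csf1r was called in wild type, at 0.41 ± 0.15 (edgeR adjusted p = 0.0316), and leaving out wild-type control 5, wild-type LPS 1, 3 or 4, or any of the 4 wild-type fibril libraries raised the adjusted p to between 0.0502 and 0.0809. The call also ended with no filter on low counts (0.39, adjusted p = 0.0778) and with the other-cell marker score (0.26, adjusted p = 0.218). In this comparison 19 of the 35 other-cell markers were lower and 0 higher with fibrils.

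Csf1 went the other way in wild type. It had 2.23, 2.41, 2.07 and 1.85 CPM in wild-type fibril libraries, against 1.52 to 10.6 CPM in wild-type controls, of which 4 lay above all fibril libraries and wild-type control 6 lay below them. The log2 fold change was -1.53 ± 0.43 (edgeR adjusted p = 0.00976), and limma-voom did not call it (adjusted p = 0.0990). In KO fibril libraries Csf1 was uneven, at 17.1, 4.44, 11.4, 3.50 and 11.5 CPM, against 3.47 to 10.7 CPM in KO controls. Its fold change there was 0.34 ± 0.36 (edgeR adjusted p = 0.569). Fibrils against LPS gave -2.87 ± 0.44 in wild type (edgeR adjusted p = 1.65e-05), the largest difference of any of the 9 genes, and -0.04 ± 0.40 in KO (adjusted p = 0.963).

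The fibril calls for Csf1 and Csf1r in wild type moved with the markers of other cells. Of the 35 markers 18 were lower and 1 higher in wild-type fibril libraries than in wild-type controls, and 1 was lower and 1 higher in KO. The summed levels of the 3 cell types differed. In wild type, fibril against control, astrocyte markers summed to 16.4 to 23.7 against 23.4 to 209 CPM. Oligodendrocyte-lineage markers summed to 96.0 to 108 against 104 to 215 CPM, and fibroblast markers to 253 to 293 against 88.9 to 342 CPM. In KO the fibroblast sum was 287 to 519 CPM with fibrils against 112 to 229 CPM in controls, and the other 2 sums overlapped. With the mean of the 35 markers as a covariate, the wild-type fold change was -0.74 for Csf1 (adjusted p = 0.223) and 0.39 for Csf1r (adjusted p = 0.10). Neither was called, and Spi1 alone of the 9 stayed called. Scaling by library size also ended the Csf1r call, at 0.37 (adjusted p = 0.0556). The wild-type fibril scores (-1.0 to -0.67) met those of the controls (-0.67 to 2.75) only at wild-type control 6. The fit with the score therefore cannot tell the marker score and the fibrils apart. The part of these markers in the result was not tested. The exons of Csf1r overlap those of Hmgxb3 on the opposite strand over 873 of 5774 bases, so its counts carry the same reservation on strand as those of Cebpb, at a far higher level (10362 to 62798 counts per library).

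Cebpa fell in KO fibril libraries to 47.7, 60.9, 23.1, 37.4 and 23.5 CPM, against 62.2, 86.5 and 104 CPM as lowest, median and highest in KO controls. All 5 lay below all 6 controls. The log2 fold change was -1.13 ± 0.22 (edgeR adjusted p = 0.000435), and -0.99 to -1.36 without any single library, called each time. In wild type Cebpa had 75.2, 52.5, 57.6 and 62.9 CPM with fibrils, against 61.5 to 125 CPM in controls, with a fold change of -0.44 ± 0.24 (edgeR adjusted p = 0.178), or -0.61 (adjusted p = 0.0473) under scaling by library size. The difference between the genotypes, -0.69 ± 0.32, was not called (edgeR adjusted p = 0.407). Fibrils against LPS lowered Cebpa in KO by a log2 difference of -1.03 ± 0.24 (edgeR adjusted p = 0.00201).

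Runx1 and Cebpb, the LPS-called factors, were not called with fibrils in either genotype. Runx1 was at -0.37 ± 0.21 in KO and -0.45 ± 0.24 in wild type (edgeR adjusted p = 0.225 and 0.151), with the wild-type value called in the fit of these 2 groups alone (-0.47, adjusted p = 0.0239) and under scaling by library size (-0.64, adjusted p = 0.0378). Cebpb was at 0.30 ± 0.34 in KO and 0.48 ± 0.38 in wild type. Both were lower with fibrils than with LPS. Runx1 differed by -0.86 ± 0.23 in KO (edgeR adjusted p = 0.00708) and -1.19 ± 0.24 in wild type (adjusted p = 0.000322), the KO value reaching -0.64 (adjusted p = 0.0577) without KO LPS 3 and -0.85 (adjusted p = 0.0567) in the compared groups alone. Cebpb differed by -1.61 ± 0.38 in KO (edgeR adjusted p = 0.00242), where every fibril library lay below every LPS library, and by -0.62 ± 0.37 in wild type (adjusted p = 0.190), where the compared groups alone gave a call (-0.64, adjusted p = 0.0125). In all, 4 of the 9 genes were called between fibrils and LPS in each genotype, beside 26.5% of all tested genes in KO (13.8% higher and 12.7% lower) and 37.1% in wild type (18.1% higher and 18.9% lower).

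Of the cytokine receptor chains edgeR called none with fibrils in either genotype in the fit of all libraries. Csf2ra was at 0.17 ± 0.11 in KO and 0.31 ± 0.13 in wild type (edgeR adjusted p = 0.308 and 0.0593), Csf2rb at -0.14 ± 0.23 and 0.38 ± 0.25, and Csf3r at 0.31 ± 0.25 and 0.53 ± 0.28. In wild type Csf3r, the G-CSF receptor, had 47.1 to 49.5 CPM in 4 fibril libraries against 26.3 to 46.3 CPM in 5 controls, with no overlap. With a replicate block added to that fit, Csf2ra (0.40, edgeR adjusted p = 0.0185) and Csf3r (0.85, adjusted p = 0.00435) were called in wild type. Without the 7 libraries all 3 chains were called in wild type, at 0.34, 0.67 and 0.67 (adjusted p = 0.0261, 0.0078 and 0.00467). Leaving out 1 library also called Csf2ra (without wild-type control 5 or wild-type LPS 1 or 6, adjusted p = 0.0436, 0.0457 and 0.0476) and Csf2rb (without wild-type control 6, 0.67, adjusted p = 0.0257), and the fit of the compared groups alone called Csf3r (0.51, adjusted p = 0.0330). The 12 neutrophil and progenitor markers summed to 5.48 to 7.13 CPM in wild-type fibril libraries and 0.286 to 2.92 CPM in wild-type controls, and their part in the Csf3r result was not tested.

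KO was compared with wild type within each treatment. In control microglia edgeR called 0 of the 9 genes, beside 0.321% of all tested genes (0.153% higher and 0.167% lower), with 1 at an unadjusted p under 0.05, 0 called by limma-voom and 1 by DESeq2. That gene was Csf2ra, at 54.2 to 70.5 CPM in KO controls (median 63.7), against 78.1, 94.0, 60.1, 102 and 90.8 CPM in wild-type controls. Wild-type control 3 lay inside the KO range and the other 4 above it. Its log2 fold change was -0.43 ± 0.11 (edgeR adjusted p = 0.136), or -0.42 by DESeq2 (adjusted p = 0.0486), and without wild-type control 3 edgeR called it at -0.53 (adjusted p = 0.0139). With LPS edgeR called 0 of 9, beside 1.73% of genes (0.474% higher and 1.25% lower), with 1 at an unadjusted p under 0.05 (Runx1, -0.47 ± 0.23), and DESeq2 and limma-voom called 0. Over all 14346 tested genes, 1043 in control and 2469 with LPS had an unadjusted edgeR p under 0.05. Csf1 in the KO LPS libraries (7.58 to 12.3 CPM) lay below all wild-type LPS libraries (12.98 to 23.0 CPM), but its fold change of -0.68 ± 0.39 was not called (edgeR adjusted p = 0.375).

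With fibrils 3 of the 9 genes differed between KO and wild type, against 8.94% of all tested genes called (5.27% higher and 3.67% lower). Csf1 was higher and Csf1r and Csf2ra were lower in KO. The median of the 9 was -0.52, beside 0.01 over all genes. Csf1r in the KO fibril libraries (738 to 1387 CPM) lay below all wild-type fibril libraries (1848 to 2033 CPM), with a log2 fold change of -0.90 ± 0.16 (edgeR adjusted p = 0.00179). Csf1 in the KO fibril libraries (3.50 to 17.1 CPM) lay above all wild-type fibril libraries (1.85 to 2.41 CPM), with a fold change of 2.16 ± 0.44 (edgeR adjusted p = 0.00586), and limma-voom did not call it (1.90, adjusted p = 0.0602). Csf2ra had 68.2, 82.0, 79.6, 64.4 and 59.9 CPM in KO, against 112, 106, 104 and 101 CPM in wild type, without overlap. Its fold change was -0.58 ± 0.13 (edgeR adjusted p = 0.00834).

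Csf2rb, the beta chain that signals for GM-CSF, interleukin-3 and interleukin-5, had 109, 102, 64.3, 60.7 and 79.0 CPM in KO fibril libraries, against 134, 129.7, 149 and 139.5 CPM in wild-type fibril libraries. The groups did not overlap, but the fold change of -0.74 ± 0.25 missed the threshold (edgeR adjusted p = 0.0591). With a replicate block it was called (-0.74, edgeR adjusted p = 0.0359). Other settings called it: edgeR without the 7 libraries (-0.72, adjusted p = 0.0127), in the compared groups alone (-0.71, adjusted p = 0.0494), and without KO fibril 2 (-0.82, adjusted p = 0.0449), wild-type control 6 (-0.74, adjusted p = 0.0276) or wild-type LPS 1 (-0.73, adjusted p = 0.0488), and DESeq2 (-0.69, adjusted p = 0.0498). Csf2rb-201 is 90.3% identical to the transcript of Csf2rb2, the mouse beta chain dedicated to interleukin-3, and 7.16% of its 100-base windows occur there unchanged, so reads may have been shared. Csf2rb2 itself was at -0.55 ± 0.35 (edgeR adjusted p = 0.360). Cebpa was at -0.69 ± 0.24 (edgeR adjusted p = 0.0679). It was called without KO fibril 2 (-0.91, adjusted p = 0.0150) or wild-type control 6 (-0.69, adjusted p = 0.0494), and with a replicate block (-0.74, adjusted p = 0.0357). Spi1, at -0.02 ± 0.09, and Csf3r, at -0.00055 ± 0.28, sat near 0.

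These genotype differences with fibrils also moved with the markers of other cells. Of the 35 markers 18 were higher and 0 lower in KO fibril than in wild-type fibril libraries, with mean log2 CPM of 2.63, 2.27, 2.48, 0.85 and 1.45 in KO and -1.0, -0.67, -0.83 and -0.71 in wild type. Astrocyte markers summed to 60.8 to 309 CPM in KO and 16.4 to 23.7 CPM in wild type, where Gjb6 and Ntsr2 were at 0. The sums of the other lists overlapped. Oligodendrocyte-lineage markers summed to 97.3 to 364 CPM in KO and 96.0 to 108 CPM in wild type. Fibroblast markers summed to 287 to 519 CPM in KO and 253 to 293 CPM in wild type. Microglial markers summed to 10613 to 15522 CPM in KO and 13484 to 14247 CPM in wild type, with Sparc and Ptprc called among the 17 tested. With the marker score as a covariate none of the 9 was called between KO and wild type with fibrils by edgeR. The fold changes were then 1.18 for Csf1 (adjusted p = 0.367), -0.65 for Csf1r (adjusted p = 0.147) and -0.37 for Csf2ra (adjusted p = 0.430). In that fit 66 of all tested genes were called, against 1282 without the score. The scores of the 2 groups did not overlap, so this fit cannot tell the marker score and the group apart. The part of these markers in the genotype differences was not tested.

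**Figure D3:**
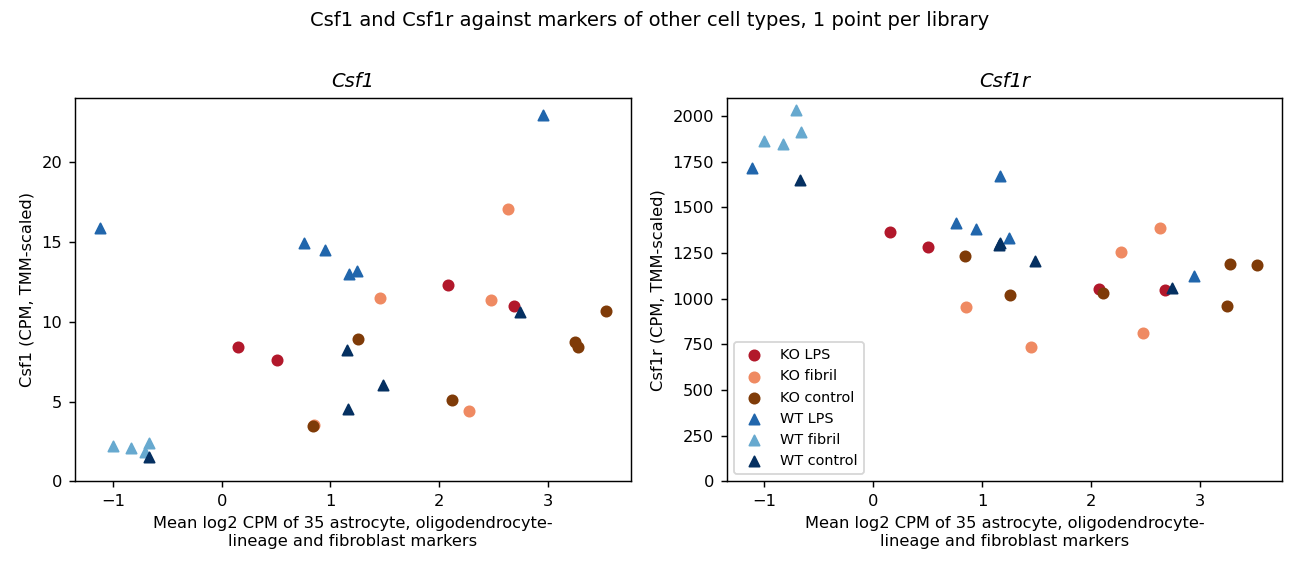
Csf1 (left) and Csf1r (right), in CPM on the vertical axis, against the mean log2 CPM of 35 astrocyte, oligodendrocyte-lineage and fibroblast markers on the horizontal axis; circles are KO and triangles wild-type libraries, 1 point per library. The 4 wild-type fibril libraries lie together at the lower end of the marker axis (-1.0 to -0.67), with low Csf1 and high Csf1r, while the KO fibril libraries lie between 0.853 and 2.63.

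The change in response between genotypes was tested directly. For LPS edgeR called 0 of the 9 genes, with 0 at an unadjusted p under 0.05, and for fibrils 0 of 9, with 3 at an unadjusted p under 0.05 (Csf1 at 1.87 ± 0.56, Csf1r at -0.66 ± 0.21 and Cebpa at -0.69 ± 0.32). DESeq2 and limma-voom called 0 of 9 in both. Over all tested genes edgeR called 0 for either response, with 600 genes for LPS and 1667 for fibrils at an unadjusted p under 0.05. For fibrils DESeq2 called 67 genes and limma-voom 0, and edgeR called 250 without the 7 libraries. For LPS each of these called 0. The genotype difference for Csf1 and Csf1r with fibrils is therefore a difference between 2 groups, and a difference in the response itself was not shown in this fit.

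Ratios within a library were taken for 3 pairs: the 2 C/EBP factors, ligand over receptor, and beta over alpha chain of the GM-CSF receptor. They are log2 ratios of counts and not per length. Cebpb over Cebpa was 0.77, 0.83, 1.86 and 2.09 in KO LPS libraries, against -1.28 to 0.35 in KO controls, and 1.02 to 1.65 in wild-type LPS libraries, against -1.35, -0.94, -0.14, 0.36 and 0.03 in wild-type controls. Every LPS library thus lay above every control of its genotype. The means differed by 2.01 in KO (exact permutation test, two-sided, p = 0.00952) and 1.83 in wild type (p = 0.00433). With fibrils the difference was 1.57 in KO (exact p = 0.00866) and 1.11 in wild type (exact p = 0.0317), where 4 of 5 and 3 of 4 fibril libraries lay above all controls. Over the 21 ratio tests the Benjamini-Hochberg values of these 4 were 0.0667, 0.0667, 0.0667 and 0.111, so none passed the correction. For both LPS comparisons the exact p is the smallest that this test can give at these group sizes.

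Csf1 over Csf1r averaged -6.94 ± 1.07 in KO fibril and -9.80 ± 0.20 in wild-type fibril libraries (SD, n = 5 and 4; exact permutation p = 0.0159, adjusted 0.0727). All 5 KO libraries lay above all 4 wild-type ones, so this p is also the smallest possible at these group sizes. With LPS in wild type the ratio averaged -6.53 ± 0.48, against -7.96 ± 1.30 in controls (SD, n = 6 and 5; exact permutation p = 0.0173, adjusted 0.0727). Csf2rb over Csf2ra differed by -0.38 to 0.25 in the 7 comparisons, and its smallest exact permutation p was 0.105.

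**Figure D4:**
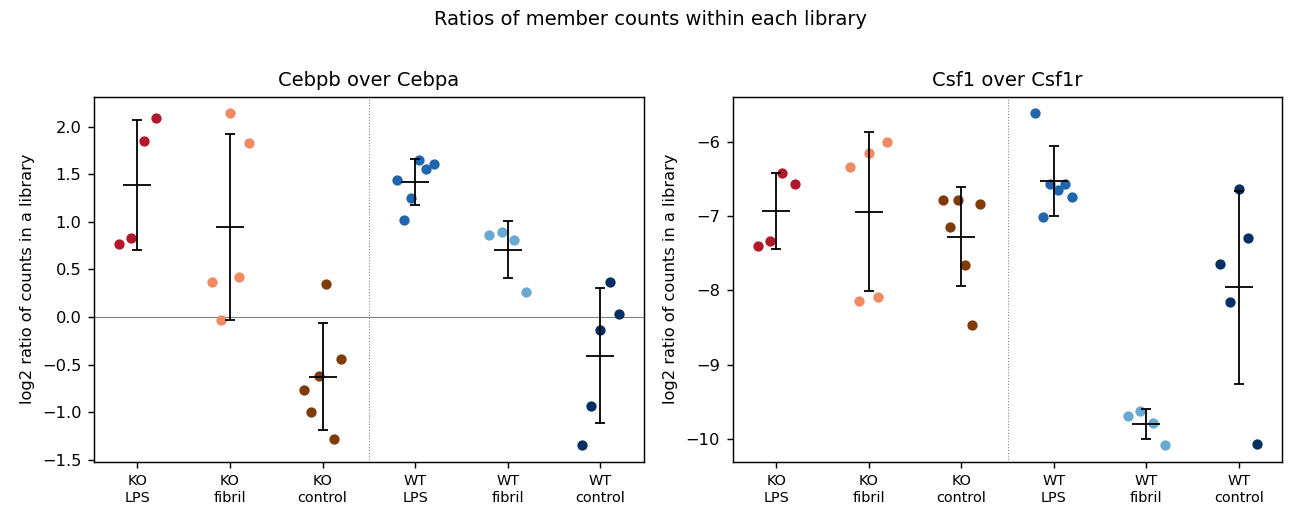
Log2 ratio of counts within each library (vertical axis) for Cebpb over Cebpa (left) and Csf1 over Csf1r (right), by group; points are libraries, the bar is the mean and the whiskers 1 SD. Cebpb over Cebpa in all 4 KO LPS and 6 wild-type LPS libraries is above the controls of its genotype, and Csf1 over Csf1r in the 4 wild-type fibril libraries is below all KO fibril libraries.

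Among 12 other ligands and receptors of this cytokine group, 7 passed the filter, and those called against control or between genotypes were Csf3, Csf2 and Kitl. Csf3, which encodes the G-CSF ligand of Csf3r, averaged 4.35 ± 1.20 CPM in KO LPS and 8.31 ± 7.47 CPM in KO fibril libraries, against 0.045 ± 0.046 CPM in KO controls (SD, n = 4, 5 and 6). It averaged 5.95 ± 3.05 CPM in wild-type LPS and 3.67 ± 1.33 CPM in wild-type fibril libraries, against 0.040 ± 0.048 CPM in wild-type controls (SD, n = 6, 4 and 5). Its log2 fold changes were 6.55 ± 0.71 and 7.48 ± 0.69 with LPS and fibrils in KO, and 6.80 ± 0.71 and 6.11 ± 0.73 in wild type (edgeR adjusted p = 9.05e-08, 2.08e-08, 3.33e-08 and 1.41e-06). Csf2, the GM-CSF gene, rose with LPS in both genotypes, with 52 counts over 4 KO LPS libraries against 3 over 6 KO controls, and 125 over 6 wild-type LPS libraries against 0 over 5 wild-type controls (edgeR adjusted p = 0.00093 and 2.05e-05). With fibrils it had 1 count in each genotype. Kitl, the ligand of the receptor Kit, fell with fibrils in KO (-0.76 ± 0.24, edgeR adjusted p = 0.0220) and was lower in KO than in wild type with fibrils (-0.87 ± 0.26, adjusted p = 0.0378). None of the 7 was called by edgeR between KO and wild type in control or with LPS, where Kitl had the smallest p with LPS (0.73 ± 0.25, adjusted p = 0.119) and Flt3l in control (-1.44 ± 0.64, adjusted p = 0.642).

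Of 36 genes of Csf1r and GM-CSF receptor signalling, feedback and shedding, all were tested. With LPS 7 rose and 2 fell in KO, beside 13.7% of all tested genes called (6.36% higher and 7.35% lower). In wild type 10 rose and 1 fell with LPS, beside 15.1% of all tested genes (7.1% higher and 8.03% lower). Socs3, the cytokine-induced inhibitor of JAK signalling, led both, at 5.83 ± 0.40 in KO and 6.12 ± 0.43 in wild type (edgeR adjusted p = 2.4e-11 and 2.81e-11). Dok1, an adaptor that restrains receptor tyrosine kinases, fell in both, by 0.73 ± 0.11 and 0.59 ± 0.10 on the log2 scale, and Jak2 (0.95 ± 0.18) and Src (0.97 ± 0.22) rose in wild type. With fibrils 13 rose and 2 fell in KO, beside 23.7% of all tested genes called (12.2% higher and 11.5% lower). In wild type 15 rose and 2 fell with fibrils, beside 29.4% of all tested genes (13.8% higher and 15.6% lower). Syk, the kinase that relays ITAM and Fc receptor signals, rose by 1.39 ± 0.13 in KO (edgeR adjusted p = 1.69e-08) and 1.16 ± 0.14 in wild type (adjusted p = 1.71e-06). The kinase Lyn (1.07 ± 0.13) rose in KO, and Adam17, the protease that sheds CSF1R, rose by 0.90 ± 0.13 in wild type. The 2 that fell were Gab3 and Inpp5d in KO, and Ptprz1 and Cish in wild type. The median of the 36 was 0.17 in KO and 0.19 in wild type with fibrils, beside -0.04 and -0.05 over all genes.

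Between KO and wild type in this list, edgeR called no gene in control (Plcg2 had the smallest p, -0.22 ± 0.07, adjusted p = 0.267). With LPS 3 were lower in KO: Adam10 (-0.37 ± 0.09), Plcg2 (-0.28 ± 0.07) and Gab2 (-0.53 ± 0.14). Over all tested genes 1.25% were lower in KO with LPS, and 5.27% were higher and 3.67% lower with fibrils. With fibrils Ptprz1 (4.19 ± 0.96) and Socs3 (1.52 ± 0.38) were higher and Dok1 (-0.38 ± 0.11) and Plcg2 (-0.24 ± 0.07) lower in KO (edgeR adjusted p = 0.0105, 0.0173, 0.0334 and 0.0353). Ptprz1, a receptor for interleukin-34 that is also expressed by oligodendrocyte precursors and astrocytes, had 51 to 375 counts in KO fibril libraries against 4 to 12 in wild-type fibril libraries, the same split as the other-cell markers. Plcg2, the phospholipase downstream of TREM2 and CSF1R, averaged 159 ± 12.4 CPM in KO fibril and 188 ± 6.15 CPM in wild-type fibril libraries (SD, n = 5 and 4).

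Of 54 other transcription factors of the macrophage lineage, 51 were tested. With LPS 12 rose and 2 fell in KO, and 12 rose and 1 fell in wild type, beside 13.7% and 15.1% of all tested genes called. The 4 with the smallest p were the same in both genotypes: Klf6 (1.73 ± 0.13 in KO, 1.72 ± 0.13 in wild type), Egr1 (4.08 ± 0.45 and 5.16 ± 0.49), Egr2 (3.78 ± 0.37 and 3.64 ± 0.38) and Etv3 (1.26 ± 0.15 and 1.19 ± 0.15), with edgeR adjusted p of at most 5.02e-07. Those that fell were Lyl1 and Smad3 in KO and Lyl1 in wild type. With fibrils 12 rose and 9 fell in KO, beside 23.7% of all tested genes called (12.2% higher and 11.5% lower). In wild type 9 rose and 10 fell with fibrils, beside 29.4% of all tested genes (13.8% higher and 15.6% lower). Nr1h3, the oxysterol receptor LXRα, rose by 1.41 ± 0.18 in KO (edgeR adjusted p = 2.23e-06) and 1.60 ± 0.20 in wild type (adjusted p = 2.03e-06). Cebpd, another C/EBP factor, rose by 1.84 ± 0.27 in KO and 1.76 ± 0.30 in wild type (adjusted p = 1.87e-05 and 0.000121). Mef2c, a factor of the microglial programme, fell by 1.30 ± 0.15 and 0.79 ± 0.17 on the log2 scale, Fli1 fell by 0.62 ± 0.09 in KO, and Klf6 rose by 0.77 ± 0.14 in wild type.

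Sall3, a relative of the microglial factor Sall1, was the one lineage factor higher in KO in every treatment, at 1.44 ± 0.35 with LPS, 1.92 ± 0.39 with fibrils and 1.90 ± 0.35 in control (edgeR adjusted p = 0.0317, 0.00555 and 0.00574). It averaged 5.09 ± 2.61 CPM in KO control and 1.38 ± 0.41 CPM in wild-type control libraries (SD, n = 6 and 5). With LPS Smad3 was lower in KO (-0.72 ± 0.18, adjusted p = 0.0398). With fibrils 7 were lower in KO, beside 3.67% of all tested genes. They were led by Pparg (-0.77 ± 0.15), Egr2 (-1.67 ± 0.38) and Lmo2 (-0.57 ± 0.15), with edgeR adjusted p of 0.00467, 0.0105 and 0.0189. The gene lists describe these libraries by count, and the share of all genes called in the same comparison is the one given above for the 9.

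The genes whose log2 CPM most resembled each of the 9 over the 30 libraries were named as a description, among tested genes of mean log2 CPM of at least 4. The points share their libraries and treatments, and no p is given. For Csf1r these were Esyt1 (Pearson r = 0.91), Plod3 (0.90) and Coro1c (0.88), and with group means taken out Colec12 (0.88), Itgb2 (0.87) and Myo1f (0.86). For Spi1 they were Gsap (0.94), Acsl5 (0.94) and Cop1 (0.93), and for Runx1 Mbtd1 (0.96), Atg2a (0.94) and Cpeb2 (0.93). For Cebpb they were Jund (0.92), Pim3 (0.92) and Tiparp (0.91), and with group means taken out Ifrd1 (0.86) and Junb (0.85). Cebpa was nearest to Fbxo21 (0.93) and Csf1 to Itgav (0.88). Of the receptor chains, Csf2ra was nearest to Sh3tc1 (0.83), Csf2rb to Slc30a1 (0.91) and Csf3r to H2-M3 (0.86). Among the 9 themselves, Csf1r and Cebpa had r = 0.84 with group means taken out and 0.42 with them, and Csf1r and Spi1 had -0.48 and 0.12.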

How the data were processed

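Per the labels' protocols, total RNA depleted of ribosomal RNA was made into stranded libraries and read as single-end reads. Per the submitters' processing notes, CASAVA 1.7.1 and STAR 2.4.2a were used with mm10 (the counting program: not given in the sources used). Values deposited by the authors are raw whole-number counts for each Ensembl transcript. The 94647 transcripts were summed to 38031 genes with GENCODE M21; 3327 unmatched ones (0.779% to 0.891% of a library) were left out. With edgeR 4.0.16 the filter for 6 groups left 14346 genes, TMM factors were 0.827 to 1.14, and 1 mean per group was fitted over all libraries (24 residual degrees of freedom). TPM values were computed from the counts and transcript lengths. Single ratios were tested with scipy 1.17.1 by exact permutation. DESeq2 1.42.0, limma-voom (limma 3.58.1), other scalings and filters, left-out libraries and a replicate block were alternatives. The edgeR test was also tried on simulated counts with known changes, for wild-type LPS against wild-type control only. No pair of replicates agreed within sampling noise. The 9 genes and the other lists were chosen with earlier results of these data known. All 9 were named throughout, and in each other list up to 4 called genes of smallest p, or up to 2 where none was called. A result that this rule would name is not reported here.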

Additional observations from a re-analysis of the deposited data

Results flagged for a closer look

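In 3 of 54 groups of libraries (9 genes in 6 groups), 1 library lay far from the rest of its group by Dixon's gap test at the 95% level, a rule that chance meets in about 1 group in 20. Csf1 stood at 23.0 CPM in wild-type LPS replicate 1, where the nearest library had 15.9 CPM. This library was also the highest of its group in markers of other cells, with a mean log2 CPM of 2.95. Runx1 stood at 104 CPM in wild-type fibril replicate 4, where the nearest had 114 CPM, in a group whose whole range was narrow. Cebpb stood at 113 CPM in KO control replicate 4, where the nearest had 55.4 CPM. What set these libraries apart was not tested.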

How the results depend on the processing

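Counts of the 9 genes called moved with some settings. In KO LPS against control 1 gene was called with scaling by library size, with no filter on low counts, without the 7 libraries that stand apart, or with the marker score. In wild-type fibril against control 5 were called in the fit of these groups alone and with a replicate block, 6 without the 7 libraries and 1 with the marker score. Between KO and wild type with fibrils 5 were called with the block and 0 by edgeR with the marker score, where 66 of all genes were. Between KO and wild type in control DESeq2 called 1, and without the 7 libraries 1 was called for the difference in fibril response. Leaving out 1 library gave 0 to 1 calls for KO against wild type in control, 3 to 5 with fibrils, 1 to 2 for LPS in KO and 1 to 3 for LPS in wild type.

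No fold change that turned sign was called under the setting that turned it. For Csf3r between KO and wild type with fibrils the values were 0.040 with RLE scaling, 0.13 with library size, 0.020 with a filter of 1 CPM, 0.039 with no filter, 0.041 by DESeq2, 0.027 in the compared groups alone and 0.69 with the marker score. For Spi1 in the same comparison they were 0.025, 0.13, 0.0047, 0.018, 0.025 and 0.011 in the first 6 of these. Scaling by library size gave -0.066 for Csf1r, -0.16 for Csf2ra, -0.099 for Csf2rb and -0.068 for Spi1 with LPS in wild type. It gave -0.079 for Csf1r and -0.092 for Spi1 with LPS in KO, 0.0050 for Csf2ra in KO against wild type with LPS, 0.012 for Runx1 in KO against wild type with fibrils and 0.045 for Csf1 with fibrils against LPS in KO. By limma-voom Csf2rb was 0.024 and Csf3r 0.036 with LPS in KO. Without the 7 libraries Csf1r was -0.020 and Csf2rb 0.013 with LPS in KO, Csf2rb was 0.025 in KO against wild type in control, and the differences in response were 0.041 for Spi1 with LPS and -0.19 for Runx1 with fibrils. With the marker score Csf1 was -0.042 and Csf2rb 0.023 in KO against wild type in control, Csf3r was -0.34 and Cebpa -0.13 with fibrils against LPS in wild type, Csf2rb was 0.0037 with fibrils against LPS in KO, and the difference in fibril response of Csf3r was 0.17. The cause was not tested.

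Leaving out 1 library gave these ranges across a change of sign. Cebpa ran from -0.084 to 0.20 in KO against wild type in control, from -0.17 to 0.025 with LPS in KO and from -0.029 to 0.15 with fibrils against LPS in wild type. Csf1 ran from -0.35 to 0.17 with fibrils against LPS in KO. Csf2ra ran from -0.044 to 0.13 with LPS in wild type. Csf2rb ran from -0.35 to 0.070 in KO against wild type in control, from -0.12 to 0.10 with LPS in KO and from -0.029 to 0.39 with LPS in wild type. Csf3r ran from -0.21 to 0.12 in KO against wild type with fibrils and from -0.17 to 0.18 with LPS in KO. Runx1 ran from -0.32 to 0.00081 and Spi1 from -0.087 to 0.052 in KO against wild type with fibrils. The differences in response ran from -0.46 to 0.12 for Cebpb and from -0.10 to 0.23 for Runx1 with fibrils, and from -0.14 to 0.025 for Csf1r and from -0.42 to 0.0056 for Csf2rb with LPS. The log2 ratio of Cebpb over Cebpa ran from -0.27 to 0.17 in KO against wild type with LPS and from -0.060 to 0.48 with fibrils, and that of Csf2rb over Csf2ra from -0.053 to 0.29 with LPS and from -0.0052 to 0.34 with fibrils in wild type.

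Whether replicate numbers pair the samples was not settled. Deviations from the group mean were correlated between same-numbered libraries, with no reference from libraries of different numbers. The correlations lay between -0.52 and 0.65, and in no comparison was every pair above 0.1. For LPS in wild type, fibrils in KO, and KO against wild type in control, 4 of 5 pairs were above 0.1. For fibrils in wild type 0 of 3 pairs were, and for KO against wild type with fibrils 0 of 4. The block added calls for Runx1 with LPS in KO (0.63, adjusted p = 0.0424), Csf3r (0.85, adjusted p = 0.00435) and Csf2ra (0.40, adjusted p = 0.0185) with fibrils in wild type, Csf2ra with fibrils against LPS in wild type (0.33, adjusted p = 0.0338), and Csf2rb (-0.74, adjusted p = 0.0359) and Cebpa (-0.74, adjusted p = 0.0357) in KO against wild type with fibrils. Without wild-type LPS 6, Csf2ra was also called with fibrils against LPS in wild type (0.33, adjusted p = 0.0345). With the block Csf2rb was 0.069 and Csf3r 0.29 with LPS in KO, Csf3r was 0.015 in KO against wild type with LPS, and the log2 ratio of Cebpb over Cebpa was 0.046 in that comparison. Without the 7 libraries this ratio was 0.017, and Csf1 over Csf1r was -0.035 in KO against wild type in control. As shares of TPM in place of counts, Csf1-201 held 79.9%, Csf1r-201 94.8%, Runx1-203 76.5%, Runx1-202 20.2%, Spi1-201 50.05% and Spi1-204 29.9%. Of the fold changes under settings that kept all libraries or left out a named set, 1012 stayed on their side of the threshold in the same direction, 18 lost a call and 21 gained one. Csf1, with the fewest counts, is the gene whose fold changes have the widest errors.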

Other observations

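The 2 main transcripts of Csf3r start at different sites, and Csf3r-202 begins upstream of Csf3r-201. In wild-type control replicate 1 Csf3r-202 held 94.3% of Csf3r counts (872 counts, with 42 on Csf3r-201). In the other 29 libraries its share was 13.4% to 45.6%. The summed Csf3r level of that library, 27.6 CPM, lay beside those of wild-type controls 2 and 3 (26.3 and 27.0 CPM). The cause of this share was not tested.

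The wild-type fibril libraries varied least for several of the 9 genes. The SD of Spi1 was 2.13 CPM around a mean of 366 CPM there, against 46.6 CPM around 362 CPM in KO fibril libraries, and that of Csf3r was 1.12 CPM around 48.3 CPM, against 17.1 CPM around 48.3 CPM. The counts of these replicate pairs still differed beyond sampling noise, with a chi-square per degree of freedom of 8.80 to 31.3 over genes.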
